A study of Mus musculus with 16 samples.

Results

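The members described here are the mature microRNAs of the miR-129 family: miR-129-5p, miR-129-2-3p and miR-129-1-3p, 3 of the 2274 miRNA names counted in the 16 libraries. They were taken by name from the deposited tables, with or without a hairpin copy number. The family was picked because it was higher in knockout cells than in control cells, so the values of that contrast are given as a description, with no test. Levels are counts scaled to a common library size (CPM) with TMM, a correction for library composition.

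A miRNA is cut from a hairpin precursor, one arm of which usually enters Argonaute and guides it to mRNAs that pair with the seed, the bases near its 5′ end. The arms are named 5p and 3p after their side of the hairpin. miR-129 is known as a miRNA of brain and other neural tissue. The mouse genome carries a pair of miR-129 hairpins on different chromosomes. They give the same 5p arm and slightly different 3p arms, so only the 3p arms can tell which hairpin was the source.

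C2C12 is an established line of mouse muscle precursors, or myoblasts, which in low serum stop dividing and join into multinucleate myotubes, and the labels' protocol calls these cells PAX7 NEG. The control libraries came from populations 1 and 2, labelled wild-type. The knockout libraries (tKO) came from clones 1 and 2, which lack the hairpins miR-1a-1, miR-1a-2 and miR-206, the muscle miRNAs of one seed family. Each line was sampled as myoblasts in growth medium with 20% FBS (GM) and as myotubes after 3 days in 2% horse serum (DM3). Each of the 4 groups holds 4 libraries, 2 replicates of each of 2 lines. These are not 4 independent lines, and the p-values measure the spread between these libraries, which may be technical.

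The hairpins are shown with both mature arms in capitals, because their 5p arms are identical and their 3p arms are not. Both sequences are from RefSeq, build GRCm38.p6, 5′ to 3′.
Mir129-1 hairpin: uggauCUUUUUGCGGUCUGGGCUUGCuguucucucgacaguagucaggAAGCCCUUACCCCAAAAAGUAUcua
Mir129-2 hairpin: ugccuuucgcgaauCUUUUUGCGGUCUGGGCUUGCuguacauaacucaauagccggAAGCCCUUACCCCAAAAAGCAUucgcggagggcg

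Mir129-1 lies at chr6:29022619-29022691 on the plus strand and is overlapped by an exon of the lincRNA gene Gm3294. The nearest protein-coding gene downstream is Lep, which encodes leptin, 37529 bases away. Mir129-2 lies at chr2:94241364-94241453 on the minus strand, in an intron of the lincRNA gene Mir670hg. Mir670 is 19847 bases away in the same host gene. An annotated antisense hairpin, Mir129b, overlaps Mir129-2 on the plus strand, and 6 reads in all were listed under its names.

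The mature 5p arm is shown with its seed, bases 2 to 8, in capitals. The 3p arms are shown with the bases after their shared start in capitals, since these carry the locus assignment below.
miR-129-5p: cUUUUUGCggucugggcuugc
miR-129-2-3p: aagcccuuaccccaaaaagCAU
miR-129-1-3p: aagcccuuaccccaaaaagUAU

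The 3p arms share their first 19 bases and differ by C20U, counted from the 5′ end of miR-129-2-3p. Both have the seed AGCCCUU, and the 5p arm has UUUUUGC. No other of the 1679 mature miRNAs in the RefSeq table has either seed. The mature sequence of miR-129-1-3p was read from the deposited tables.

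The libraries held between 112792 and 6543570 miRNA reads, and 3 reads, about what a count of 0 allows, equal between 0.559 and 20.1 CPM. The shallowest library, tKO DM3 clone 1 replicate 1, stood apart. In it 18.9% of reads were under 18 nt, 35.4% were listed as miR-6240 or miR-6236, and its correlation with the other replicate was 0.802, against 0.930 to 0.980 in the other 7 pairs. miR-206-3p matched the labels, at 883 to 60645 CPM in control libraries and 0.817 to 53.6 CPM in tKO libraries. The summed levels of 6 muscle miRNAs, 2 of them deleted in tKO, were 953 to 62999.6 CPM in control and 57.9 to 1022 CPM in tKO libraries. Markers of neurons, the cell type miR-129 is best known from, summed to 723 to 3245 CPM over all libraries, with all 6 of 6 detected in every group. Nearly all of this sum is miR-128-3p (group means of 1733 to 2621 CPM), while miR-124-3p had group means of 2.37 to 6.16 CPM. In DM3 the 6 epithelial markers summed to 2.31 to 12.5 CPM in control and 13.4 to 37.8 CPM in tKO, where the lowest tKO value is of the shallowest library and under its 3-read level of 20.1 CPM, and in GM to 16.5 to 28.4 and 22.7 to 38.7 CPM. The 2 endothelial markers summed in GM to 15.9 to 35.4 CPM in control and 3.10 to 13.2 CPM in tKO, and in DM3 to 4.62 to 16.9 and 3.85 to 17.2 CPM. Blood markers summed to 0 to 4.59 CPM, with miR-142a-5p at 0 in every group. Their part in the miR-129 levels was not tested.

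miR-129-5p was present in all 16 libraries and was the abundant arm. In control GM, population 1 had 39.1 CPM (19 reads) in replicate 1 and 48.4 CPM (237 reads) in replicate 2, and population 2 had 33.4 CPM (50 reads) and 52.5 CPM (282 reads). In tKO GM, clone 1 had 81.6 CPM (79 reads) and 332 CPM (783 reads), and clone 2 had 276 CPM (424 reads) and 695 CPM (3679 reads). Every tKO library in GM lay above every control library, and clone 2 was the higher clone within each replicate number. The tKO mean, 346 ± 256 CPM (SD, n = 4), was 7.98 times the control mean of 43.4 ± 8.69 CPM (SD, n = 4). In such bulk libraries, more cells with the miRNA and more of it per cell cannot be told apart.

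After 3 days in differentiation medium the order of the lines was similar. In control DM3, population 1 had 31.4 CPM (11 reads) and 78.1 CPM (81 reads), and population 2 had 37.0 CPM (16 reads) and 61.8 CPM (175 reads). In tKO DM3, clone 1 had 73.6 CPM (11 reads) and 189.8 CPM (697 reads), and clone 2 had 369 CPM (288 reads) and 858 CPM (3654 reads). The groups overlapped in 1 library, since replicate 1 of clone 1 lay just below the highest control library. That value rests on 11 reads, with a Wilson 95% interval of 41.1 to 131.9 CPM. The tKO mean, 373 ± 346 CPM (SD, n = 4), was 7.16 times the control mean of 52.0 ± 21.8 CPM (SD, n = 4).

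**Figure D1:**
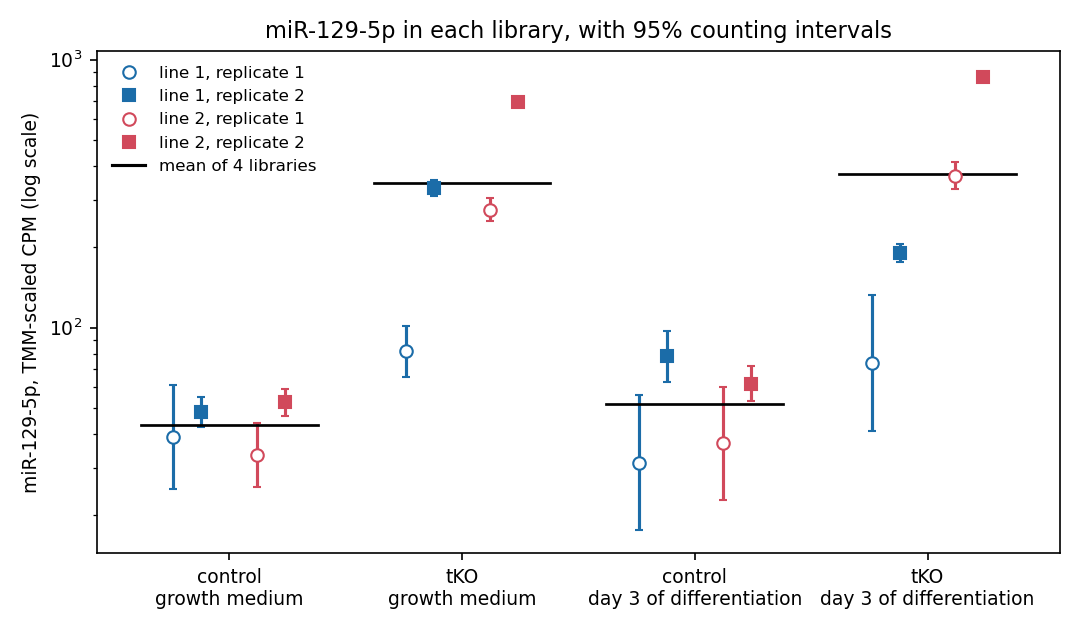
miR-129-5p in each of the 16 libraries, as TMM-scaled CPM on a log axis, by group, line and replicate, with Wilson 95% counting intervals and group means as horizontal bars. Clone 2 reaches 695 CPM in GM and 858 CPM in DM3, while all 8 control libraries lie between 31.4 and 78.1 CPM.

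By mean CPM miR-129-5p ranked 299 of 807 tested names in control GM and 140 in tKO GM. In DM3 its rank was 312 in control and 142 in tKO. The tKO-to-control ratio differed by clone: in GM it was 4.77 for clone 1 and 11.2 for clone 2, and in DM3 it was 2.53 and 11.8. Each ratio rests on 2 libraries of its clone, so leaving 1 out would move it. These libraries differed 4.07-fold (clone 1) and 2.52-fold (clone 2) in GM, and 2.58- and 2.33-fold in DM3. The fitted log2 differences between tKO and control were 2.99 in GM and 2.83 in DM3. In those contrasts 9 names (1.12%) and 7 names (0.867%) of 807 had an adjusted p under 0.05, and nothing is read from this for the members, which were chosen on it. Without the shallowest library the DM3 difference was 3.26, the GM difference 2.95, and 53 and 16 names were called. Without clone 2 replicate 2, the highest library of each medium, the difference was 2.40 in GM and 2.05 in DM3.

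The 3p arm of Mir129-2, the rarer arm here, showed the same order at a much lower level. In control GM miR-129-2-3p had 0, 2, 7 and 8 reads, at most 1.49 CPM. In tKO GM clone 1 had 2 and 20 reads (2.07 and 8.49 CPM), and clone 2 had 19 and 198.5 reads (12.4 and 37.5 CPM), where a fraction comes from reads shared between sequences. The measured values of the groups did not overlap in GM, but this rests on low counts: tKO clone 1 replicate 1 had 2 reads, and control population 1 replicate 1 had 0 reads with a Wilson upper limit of 7.91 CPM. The groups had a tKO mean of 15.1 ± 15.5 CPM and a control mean of 1.06 ± 0.712 CPM (SD, n = 4 each). In control DM3 a single library had reads, 6 of them (2.12 CPM). In tKO DM3 clone 1 had 0 and 29 reads (0 and 7.90 CPM), and clone 2 had 13 and 123.5 reads (16.7 and 29.0 CPM). The groups overlapped in DM3, where the library of clone 1 without reads is the shallowest one, and 3 reads in it equal 20.1 CPM.

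miR-129-1-3p, the 3p name of the other hairpin, was too rare to test. It had 0, 0, 5 and 6 reads in control GM and 0, 0, 0 and 2 in control DM3. In tKO GM it had 0 and 9 reads in clone 1 and 3 and 32.5 in clone 2, and in tKO DM3 it had 1 and 5 in clone 1 and 4 and 22.5 in clone 2. Most of these reads do not identify a hairpin, as the next comparison shows.

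Which hairpin the reads came from was read from their sequences. The 5p reads give almost no answer: 9865 match both hairpins, 12 only Mir129-2, 3 only Mir129-1 and 606 neither exactly. Of the 3p reads, 384 match only Mir129-2, 21 only Mir129-1, 59 both and 54 neither exactly. The name miR-129-1-3p covers 90 reads, of which 55 (61.1%) are the 19-base start common to both arms. The name therefore overstates Mir129-1, and the sequences were used in its place.

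Nearly all 3p reads that tell the hairpins apart matched Mir129-2 in the tKO clones. In clone 2 there were 322 reads matching only Mir129-2 and 9 matching only Mir129-1, a Mir129-2 share of 97.3% (Wilson 95% interval 94.9 to 98.6). In clone 1 there were 44 and 6 reads, a share of 88.0% (76.2 to 94.4). In control there were 18 and 6 reads, a share of 75.0% (55.1 to 88.0). All these intervals cover counting error only, and the control share rests on those 18 and 6 reads.

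Of the 21 reads matching only Mir129-1, 11 end at the single distinguishing base, and all 11 are in tKO libraries. Such a read is written the same as a common 19-base read with an added U, so it does not identify the hairpin. Without these 11 reads clone 2 had 322 reads against 0 and clone 1 had 44 against 4 (91.7%). A count of 0 in 322 puts the lower Wilson limit of the Mir129-2 share at 98.8%. The control reads included none of this form.

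**Figure D2:**
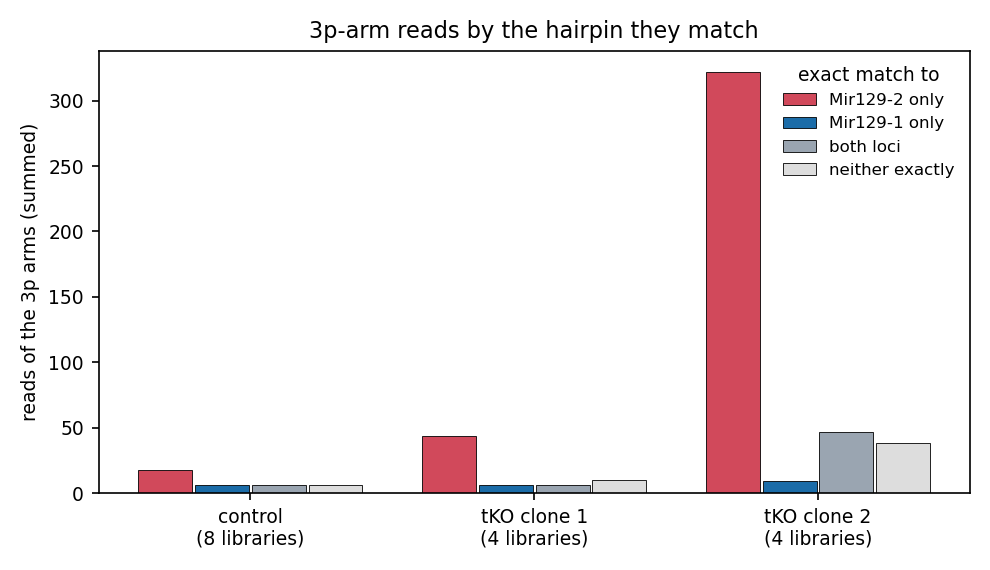
Reads of the 3p arms by the hairpin they match exactly (only Mir129-2, only Mir129-1, both or neither), summed over the 8 control libraries and the 4 libraries of each tKO clone. Clone 2 has 322 reads matching only Mir129-2, clone 1 has 44 and the controls have 18.

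Whether miR-129 changes as the cells differentiate was tested in each genotype, with edgeR's quasi-likelihood test over all 807 names and Benjamini-Hochberg adjustment. This comparison did not enter the choice of members. No change of miR-129-5p with medium was detected. In tKO the log2 difference of DM3 from GM was 0.12 (SE 0.61, 95% interval -1.14 to 1.39, adjusted p = 0.927), in a comparison where 159 names (19.7%) were called. In control it was 0.28 (SE 0.63, interval -1.03 to 1.60, adjusted p = 0.784), where 223 names (27.6%) were called. Other ways of counting gave larger control values, none past the threshold: 1.205 with exact mature sequences (adjusted p = 0.146), 0.75 with reads of 18 to 25 nt (0.384) and 0.64 with scaling by total counts (0.478). These intervals reach past a doubling in either direction, so a change of that size was not detectable here. Without the shallowest library, the one that stood apart, the tKO value was 0.56 (SE 0.54, edgeR adjusted p = 0.509).

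The response to medium did not differ detectably between genotypes either. The interaction for miR-129-5p was -0.16 on the log2 scale (SE 0.87, interval -1.98 to 1.66, adjusted p = 0.991). edgeR called 0 of 807 names (0%) for this term, with 37 at an unadjusted p under 0.05, and DESeq2 also called 0. With exact mature sequences the interaction was -0.92 (adjusted p = 0.884). Without the shallowest library the interaction for miR-129-5p was 0.31 (SE 0.75, adjusted p = 0.869). For miR-129-2-3p the log2 difference of DM3 from GM in tKO was -0.0032 (SE 0.71, interval -1.48 to 1.48, adjusted p = 0.999).

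No difference between the clones in their response to medium was detected. From GM to DM3 the fitted log2 difference of miR-129-5p was -0.60 in clone 1 (SE 0.74, adjusted p = 0.669), where 65 names (8.05%) were called. Without the shallowest library, which is of clone 1, that value was -0.084, with 19 names called. In clone 2 it was 0.34 (SE 0.72, adjusted p = 0.857), where 22 names (2.73%) were called. The signs are not stable. The clone 1 value was 0.73 without clone 1 replicate 2 in GM, and the clone 2 value was -0.42 without clone 2 replicate 2 in DM3, -0.051 without replicate 1 in GM and 1.149 without replicate 2 in GM. Each of these fits leaves a single library of that clone in a medium, which is assumed to vary like the other groups. The difference between these responses was 0.94 (SE 1.03, interval -1.26 to 3.14, adjusted p = 0.994), with 0 names (0%) called by edgeR or by DESeq2 and 17 at an unadjusted p under 0.05. Without clone 1 replicate 2 in GM it was -0.39. For miR-129-2-3p the log2 difference of DM3 from GM was 0.17 in clone 1 (SE 0.92, adjusted p = 0.963) and -0.11 in clone 2 (SE 0.77, adjusted p = 0.965).

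The level of miR-129 was higher in clone 2 than in clone 1, by an amount that did not pass the adjusted threshold. In GM the mean of miR-129-5p in clone 2 was 2.35 times that in clone 1, with overlap, because clone 2 replicate 1 lay below clone 1 replicate 2. In DM3 it was 4.66 times as high, with no overlap. Over both media the fitted log2 difference was 1.69 (SE 0.53, interval 0.57 to 2.82, unadjusted p = 0.00589, edgeR adjusted p = 0.176), and 11 names (1.36%) were called. The median over all names was -0.25 in this contrast. Without the shallowest library the value was 1.54 (adjusted p = 0.343). Without clone 1 replicate 2 in DM3 it was 2.20 (adjusted p = 0.0341), with 90 names called, in a fit where the shallowest library alone stands for clone 1 in DM3 and is assumed to vary like the other groups. It also passed with a replicate block, without a filter on low counts and by DESeq2.

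miR-129-2-3p followed the same order of clones. In GM its mean in clone 2 was 4.73 times that in clone 1, with no overlap of the measured values. In DM3 no ratio is given, because clone 1 replicate 1 had 0 reads with a Wilson upper limit of 25.7 CPM, above the 16.7 CPM of clone 2 replicate 1. The fitted log2 difference was 1.99 (SE 0.62, interval 0.66 to 3.31, unadjusted p = 0.00617, edgeR adjusted p = 0.178). With a replicate block it was 2.24 and passed the threshold (edgeR adjusted p = 0.0317). Without clone 1 replicate 2 in DM3 it was 5.42 (SE 1.74, edgeR adjusted p = 0.0583), a fit in which clone 1 in DM3 is the shallowest library alone, with 0 reads of this miRNA, and is assumed to vary like the others.

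No difference of miR-129-5p between the control populations was detected. The log2 difference of miR-129-5p between population 2 and population 1 was -0.096 (SE 0.53, interval -1.23 to 1.04, edgeR adjusted p = 0.968). For this contrast 0 names (0%) were called by edgeR or by DESeq2, with 32 at an unadjusted p under 0.05. For miR-129-2-3p the difference was 2.61 (SE 1.60, interval -0.81 to 6.03, edgeR adjusted p = 0.807), resting on at most 8 reads in a control library. This name passed the filter on low counts only through tKO libraries, while control libraries held at most 2.12 CPM. Nothing is therefore read from its difference between populations. Whether the difference between clones exceeds that between populations was not tested.

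**Figure D3:**
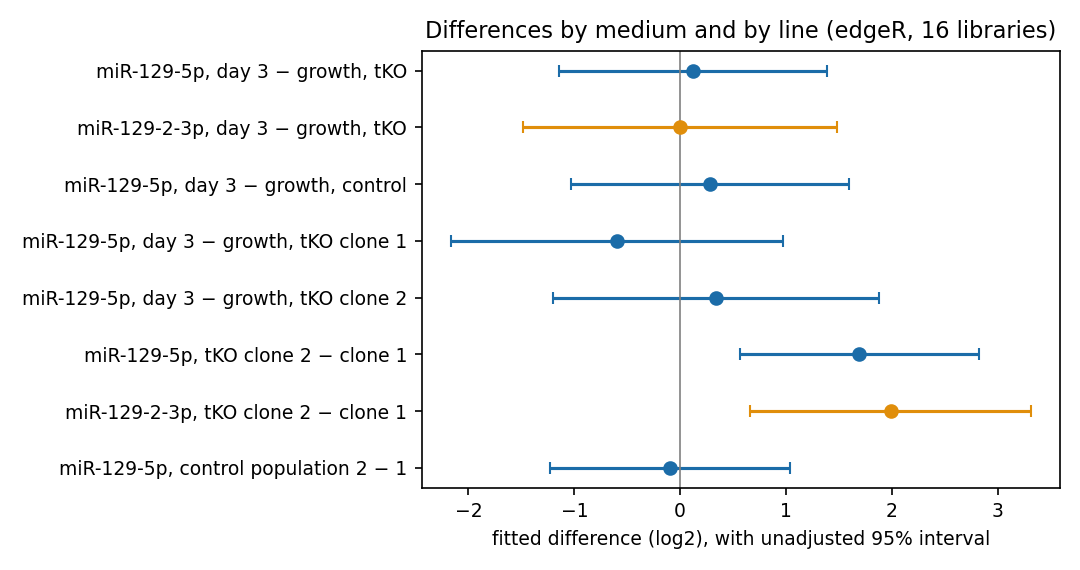
Fitted log2 differences of miR-129-5p and miR-129-2-3p between media and between lines, with 95% intervals, each from the edgeR fit over 807 names. The intervals of the medium contrasts and of the control populations span 0, while those of clone 2 against clone 1 (1.69 and 1.99) do not.

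Replicates of one line and medium differed in a recurring way. In 8 of 8 pairs miR-129-5p was higher in the deeper library, by 1.24- to 4.07-fold, with a median of 2.41. The deeper library was replicate 2 in all 8 pairs, 1.58 to 27.7 times as deep, so depth and replicate number cannot be told apart. The fitted log2 difference was 1.13 (SE 0.24, interval 0.61 to 1.65, edgeR adjusted p = 0.0203), and the median over all names was 0.096. Here 38 names (4.71%) were called, and miR-129-2-3p was not among them at 1.40 (SE 0.45, adjusted p = 0.110). This contrast was chosen after the values were seen. With a single library left out the value for miR-129-5p was 0.999 to 1.198, and the adjusted p, 0.0204 to 0.116, stayed under 0.05 in 6 of 16 fits.

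Within a replicate number the tKO libraries lay above the control libraries in both media: in DM3 the replicate 1 libraries were at 73.6 and 369 CPM against 31.4 and 37.0, and the replicate 2 libraries at 189.8 and 858 against 78.1 and 61.8. The overlap in DM3 was thus between a replicate 1 and a replicate 2 library.

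The balance of the arms did not change detectably. Among reads of miR-129-5p and miR-129-2-3p, the 3p share in tKO GM was 2.47% and 2.49% in clone 1 and 4.29% and 5.12% in clone 2. In tKO DM3 it was 0% and 3.99% in clone 1 and 4.32% and 3.27% in clone 2. The 5p arm thus made up most reads in every library. The mean 3p share was 2.90 ± 1.98% in DM3 and 3.59 ± 1.33% in GM (SD, n = 4 each), a difference of -0.70 points (two-sided exact permutation p = 0.6 over 70 assignments). The 0% is the shallowest library, with 11 reads of the 5p arm, and without it the difference was 0.27 points (exact permutation p = 0.743). Clone 2 had 4.25 ± 0.758% and clone 1 had 2.24 ± 1.65% (SD, n = 4 each), a difference of 2.01 points (two-sided exact permutation p = 0.0571), and 1.26 points without that library (exact permutation p = 0.143). In control the pooled share was 2.81% in GM (17 of the 3p and 588 of the 5p reads) and 2.08% in DM3 (6 and 283).

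The ends of the miR-129-5p reads were then compared. In the 12 libraries with at least 20 reads, between 99.0% and 100% of reads without a mismatch started at the annotated first base, so the seed was the annotated one. Most variation was at the 3′ end. The deposited tables list a read under its templated part and count added bases separately. Reads of the mature 21-nt length made up 46.0% to 69.1% of miR-129-5p, and those 1 nt shorter 19.8% to 32.5%.

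The added bases differed between these lengths. Of the 21-nt form, 82.6% to 100% of reads carried no added base (median 91.1%), and 0% to 13% carried a single A. Of the 20-nt form, only 4.44% to 25% carried none in the 10 libraries with enough reads (median 14.6%), while 58.0% to 75.0% carried a single U and 14.3% to 22.2% a single A. Most reads of the 20-nt form are therefore 21 nt long with U in place of the last C. Over all miRNAs 26.5% to 44.9% of reads carried an added base, and 6.14% to 8.37% a single U. The next templated base after the 21-nt form is U in both hairpins, as the sequences above show, so an added U there counts as templated and could not be seen.

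The lengths of miR-129-5p differed between media. In GM the 21-nt form was 57.1 ± 5.96% of miR-129-5p reads (SD, n = 7), ranging from 46.0% to 62.5%. In DM3 it was 65.3 ± 2.14% (SD, n = 5), ranging from 64.1% to 69.1%, so the media did not overlap. The difference was 8.19 points (two-sided exact permutation p = 0.00253, the smallest that 792 assignments can give, adjusted over 3 measures 0.00379). The median over all names with at least 50 reads in the same libraries was 27.5% in DM3 and 28.5% in GM, a difference of -1.04 points.

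The forms 2 nt shorter and 1 nt longer than the mature one were rarer in DM3. Reads 2 nt shorter made up 0% to 0.712% in DM3 and 1.02% to 6% in GM, again with no overlap and a difference of -2.80 points (two-sided exact permutation p = 0.00253, adjusted 0.00379). Among reads without an added base this difference was -1.86 points and did not pass (exact permutation p = 0.0909). Reads 1 nt longer made up 0.571% to 2.47% in DM3 and 2.00% to 4.96% in GM, with overlap and a difference of -1.98 points (two-sided exact permutation p = 0.00505, adjusted 0.00505). The corresponding medians over all names moved by -0.16 and -0.34 points. These 3 measures are shares of the same reads and were chosen after the values were seen, from a larger set of end and tail measures, so the adjustment over 3 does not cover that choice. The 4 libraries left out for low reads were all replicate 1. Signs of RNA quality moved with medium in the libraries used: reads under 18 nt were 1.88% to 6.49% of all reads in GM and 2.96% to 12.8% in DM3, and miR-6240 with miR-6236 took 0.555% to 5.41% and 1.60% to 17.1%. Their part in the lengths was not tested. The highest of these values and the highest mature share, 69.1%, are of control DM3 population 1 replicate 2, and without it the 3 differences were 7.24, -2.69 and -2.28 points (exact permutation p = 0.00606 each). The more common form 1 nt shorter was not tested. It ranged from 25.2% to 30.4% in tKO GM, 26.3% to 28.5% in tKO DM3, 24.1% to 32.5% in control GM and 19.8% to 25.7% in control DM3. With at least 100 reads per library the 3 tested differences were 4.98, -1.76 and -2.68 points (exact permutation p = 0.0159 each), and with replicate 2 libraries alone 6.89, -1.65 and -2.62 points (exact permutation p = 0.0286 each). Among tKO libraries alone the differences were 4.43, -2.40 and -2.01 points, each at the smallest exact p that 35 assignments allow, 0.0571.

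**Figure D4:**
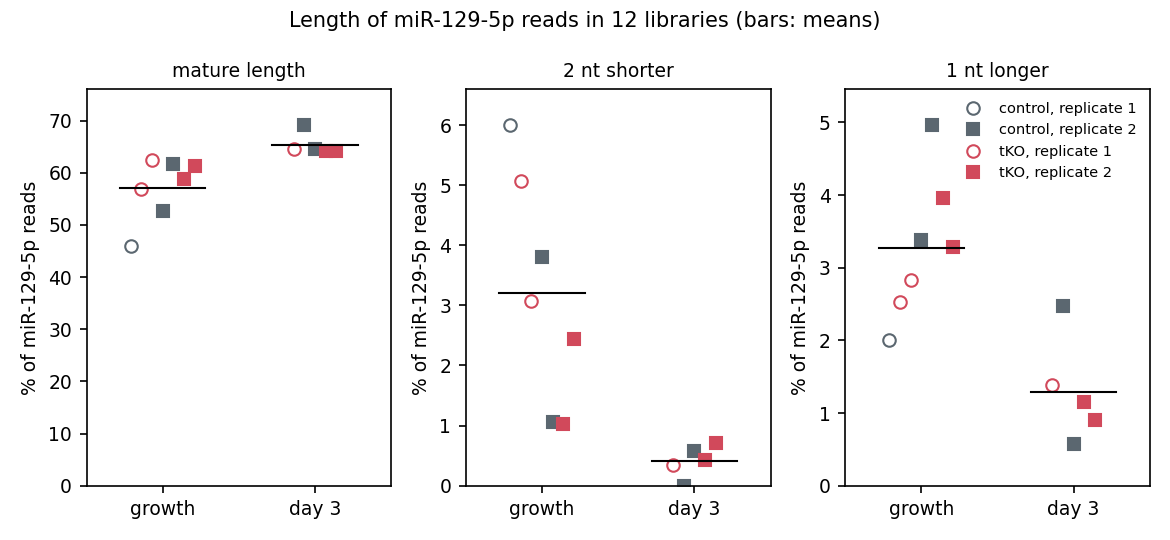
Percent of miR-129-5p reads at the mature length, 2 nt shorter and 1 nt longer at the 3′ end, in 7 GM and 5 DM3 libraries with at least 20 reads. DM3 libraries lie at 64.1% to 69.1% for the mature length, above all GM libraries, and at or under 0.712% for the form 2 nt shorter, below all of them.

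The names whose pattern over the 16 libraries was most like that of miR-129-5p were found by Pearson's r of log2(CPM + 1), given as a description. Most tKO libraries lie apart from the control libraries on this scale, and both arms share each library's depth, so r is also given within each genotype (n = 8 each). The shallowest library, of tKO, lies among the controls in both miR-129 names. In miR-129-2-3p, tKO GM clone 1 replicate 1 (2 reads) does too. miR-129-2-3p ranked 1 of 806 names with r = 0.93 over all libraries, 0.95 within tKO and 0.23 within control. The median r over all names was 0.049. Next came miR-344d-3p with r = 0.89 (0.71 within tKO, 0.14 within control) and miR-344b-3p with 0.80 (0.37 and 0.35). miR-344d-3-5p had 0.76 (0.73 and 0.81), and miR-10a-5p, a miRNA of the Hox clusters, had 0.70 (0.54 and 0.32). miR-224-5p had 0.67 (0.11 and 0.37).

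miR-344d-3p was the closest name outside the family. In GM its mean was 58.8 ± 4.42 CPM for control libraries and 383 ± 167 CPM for tKO libraries, and in DM3 68.7 ± 15.1 CPM and 351 ± 118 CPM (SD, n = 4 per group). Like miR-129-5p it was higher in clone 2 (mean 479.8 CPM) than in clone 1 (254 CPM), by 0.90 on the log2 scale (SE 0.32, edgeR adjusted p = 0.212). Between the deeper and the shallower library its log2 difference was 0.057 (SE 0.22, edgeR adjusted p = 0.935), against 1.13 for miR-129-5p, and this contrast of the names was not tested.

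**Figure D5:**
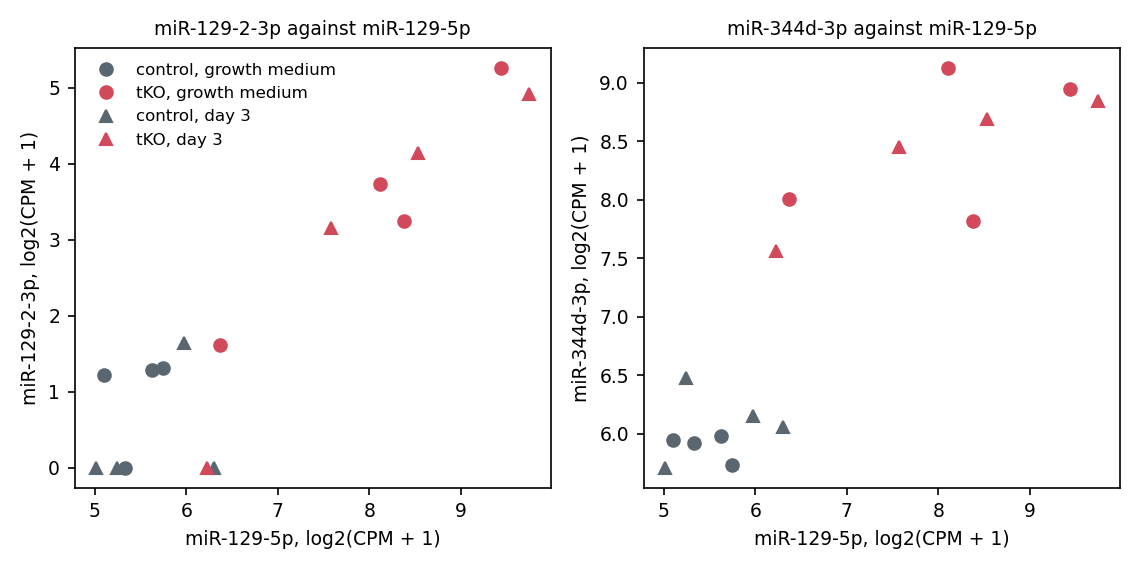
log2(CPM + 1) of miR-129-2-3p and of miR-344d-3p against that of miR-129-5p in the 16 libraries, by genotype and medium. The 8 control libraries lie at the low end, joined by the shallowest tKO library in miR-129-5p and miR-129-2-3p but not in miR-344d-3p. In miR-129-2-3p, tKO GM clone 1 replicate 1 (1.62) also lies just below the highest control library (1.64). Within tKO libraries r is 0.95 for miR-129-2-3p and 0.71 for miR-344d-3p.

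Other miRNAs known from brain did not share one direction. Of 22 brain-enriched names, a list written with some of these results known, 14 had enough reads to be tested. Between tKO and control 2 were called higher in each medium, miR-344d-3p (log2 2.70 in GM, 2.36 in DM3) and miR-344b-3p (2.36 and 2.76). miR-9-5p, which promotes neural differentiation, was called lower in each medium (-3.87 and -2.35). These 3 of 14 stand beside 1.12% of all names called in GM and 0.867% in DM3, but the list was written with these 3 differences known. The list's median was 0.070 in GM and 0.29 in DM3, against 0.11 and 0.089 over all names. miR-124-3p, the defining neuronal miRNA, had 130 reads in all and was not tested, while miR-128-3p had means in GM of 2621 CPM (control) and 2604 CPM (tKO).

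With differentiation the same list had 1 name called higher and 2 lower in each genotype, 3 of 14 tested. Over all names 27.6% were called in control and 19.7% in tKO, so the list's count is near or under the background and is no result about the list. miR-212-3p, a miRNA induced by neuronal activity, was higher in DM3 (log2 4.61 in control, 2.75 in tKO). miR-7a-5p was lower (-2.99 and -2.63), as was miR-139-5p (-0.71 and -1.03). The list's medians were -0.25 in control and 0.16 in tKO, against 0.023 and 0.0081 over all names. None of the 14 was called between the clones, between the populations or for the interaction, where 1.36%, 0% and 0% of all names were called, so nothing is read from this about the list. miR-9-3p (1.70) and miR-218-5p (1.02) were called higher in the deeper library, 2 of 14 beside 4.71% of all names.

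The neighbours of the hairpins were either too rare to test or not called. miR-670-5p and miR-670-3p, from the hairpin that shares a host gene with Mir129-2, had 38 and 29.3 reads in all. Neither exceeded 13 reads in a library, too few to test. miR-182-5p, miR-183-5p and miR-96-5p form a cluster on the chromosome of Mir129-1. Their group means were 6751 to 10224 CPM, 6512 to 11612 CPM and 444 to 999 CPM, and none was called in any of these comparisons.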

How the data were processed

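The deposited tables were made by unitas, per the file headers, and list sequences with a miRNA name. Their values are expected counts, without normalization: in the deposited tables a read matching several sequences enters each as a fraction. The submitters' processing notes name cutadapt 1.15, STAR 2.5.4 and mm10. The unitas version and the miRBase release are not given in the sources used here. Expected counts were summed per name. Of 2510 names, 236 were merged into a mature name, leaving 2274, and the sums were rounded. edgeR 4.0.16 in R 4.3.3 (filterByExpr with smallest count 10, TMM, robust quasi-likelihood test) tested 807 names in fits of all 16 libraries, with 4 coefficients for medium and genotype contrasts and 8 for lines, called at an adjusted p under 0.05. The fits were tested on simulated data. Permutation tests used scipy 1.17.1. Hairpin matches used GRCm38.p6 and GENCODE coordinates, the mm10 assembly.

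All members were named, with the 5 other names most like miR-129-5p by r, hairpin neighbours, and called members of the brain-enriched list with up to 4 others. Members and lists were chosen with earlier results of these data known. Without molecular identifiers, the intervals and the 3-read limits describe counting error alone. Replicates of a line and medium differed by far more than sampling noise. Alternatives included DESeq2 1.42.0, other scalings and filters, blocks, and each library left out.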

Additional observations from a re-analysis of the deposited data

Results flagged for a closer look

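Within groups of 4 libraries, the lowest and highest values of the 3 members and their arm shares were checked for a library far from the rest by Dixon's 95% critical value. For continuous values chance marks about 1 in 20 groups. Here 3 of 14 were marked, all 3p arms at or near 0 in control cells, to which that rate does not apply: with the other 3 libraries at 0, any library with a read is marked. miR-129-2-3p was at 0 CPM in 1 control GM library, population 1 replicate 1, and between 1.34 and 1.49 CPM in the other 3. In that library 0 reads have a Wilson upper limit of 7.91 CPM, above those values. miR-129-2-3p was at 2.12 CPM (6 reads) in control DM3 population 2 replicate 2 and at 0 in the other 3. miR-129-1-3p was at 0.706 CPM (2 reads) in the same library and at 0 in the other 3.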

How the results depend on the processing

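For miR-129-5p, DM3 against GM in tKO (0.12) became -0.13 with the line as a block. The interaction (-0.16) became 0.075 and the difference between populations (-0.096) became 0.062 without a filter on low counts. The difference between clones (1.69, adjusted p = 0.176) passed the threshold at 1.87 without the filter (adjusted p = 0.0249), at 1.67 by a DESeq2 Wald test (0.0261) and at 1.78 with a replicate block (0.0091). Over all other settings its adjusted p ran up to 0.408. For miR-129-2-3p, DM3 against GM in tKO (-0.0032) turned to 0.061 with DESeq2 size factors, 0.16 with total counts, 0.017 by DESeq2, 0.040 with a replicate block, 0.029 with a line block, 0.084 with the compared groups alone, 0.012 without mismatched reads and 0.054 for reads of 18 to 25 nt. Its difference between clones passed at 2.24 with a replicate block (edgeR adjusted p = 0.0317), and its difference by depth passed at 1.66 for exact mature sequences (edgeR adjusted p = 0.0167). For miR-129-5p the control difference between media rose from 0.28 to at most 1.205, and the interaction moved from -0.16 to at most -0.92, both with exact mature sequences. The cause of these shifts was not tested.

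The sample titles number the replicates 1 and 2 and do not say whether a number pairs libraries. The mean correlation of deviations between groups was 0.101 for the same number (-0.46 to 0.637, 48 pairs, 551 names) and -0.095 for different numbers, a hint from the data only. With the replicate block the arm share differences were -0.70 points (exact permutation p = 0.611) and 2.01 points (0.111).

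With each library left out in turn, miR-129-5p ranged from -0.68 to 0.79 for medium in tKO, -0.0059 to 0.41 in control, -0.93 to 0.55 for the interaction, 1.37 to 2.38 between clones (adjusted p 0.0341 to 0.369) and -0.33 to 0.40 between populations. The medium difference ranged from -1.49 to 0.73 in clone 1, -0.42 to 1.149 in clone 2 and -0.39 to 1.84 for the difference of both. miR-129-2-3p ranged from -0.68 to 1.04 for medium in tKO and 1.60 to 5.42 between clones. The arm share difference ranged from -1.17 to 0.27 points by medium and 1.26 to 2.60 by clone, where it passed without clone 1 replicate 2 in DM3 (exact permutation p = 0.0286). The length differences stayed past the threshold in all 12 such runs, at 6.33 to 9.08, -3.16 to -2.33 and -2.28 to -1.70 points. Counting untailed reads only gave 9.85, -1.86 and -2.91 points, and the form 2 nt shorter no longer passed (exact permutation p = 0.0909).

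The described tKO-to-control log2 difference of miR-129-5p stayed between 2.40 and 3.44 in GM and between 2.05 and 3.26 in DM3 over the settings run, which for this contrast do not include the DESeq2 Wald test. Names called ranged from 82 to 210 for medium in tKO, 139 to 263 in control, 0 to 90 between clones, 3 to 152 in clone 1, 3 to 73 in clone 2, 5 to 20 and 4 to 53 for tKO against control in GM and DM3, and 3 to 68 by depth. Values of the 3p arms and of the shallowest library are limited by depth.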
